A study of Rattus norvegicus with 4 samples.

Results

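Elastic fibres give a tissue stretch and recoil. Their core is elastin, and it is laid down on a scaffold of microfibrils built from fibrillins. Microfibril-associated proteins decorate that scaffold, and the short fibulins guide elastin onto it before lysyl oxidases cross-link it. Microfibrils also hold latent TGF-beta and BMP, and they occur without elastin in many tissues. Ear and epiglottis cartilage are classed as elastic cartilage, whereas joint cartilage is classed as hyaline and is known for a collagen II and aggrecan matrix. Xiphoid cartilage, the other tissue compared below, was not assigned to either class here.

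The 10 genes described here are elastin (Eln), the fibrillins Fbn1 and Fbn2, the microfibril-associated proteins Mfap2, Mfap4 and Mfap5, and the fibulins Fbln1, Fbln5, Efemp1 (fibulin-3) and Efemp2 (fibulin-4). They were taken by gene symbol from a table of 13554 genes, and all 10 were found and passed the low-count filter that left 11202 genes tested. RNA was sequenced from articular cartilage, which covers the bone ends in joints, and from xiphoid cartilage, the lower tip of the sternum, of Sprague-Dawley rats aged 8 to 10 weeks, with 2 libraries per tissue. No treatment or genetic change is recorded for either group. Neither the joint nor the animals behind each library are named in the labels, so the p-values speak only for the spread among these 4 libraries, and that spread may be technical.

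The libraries held 7351005 to 8434821 estimated read counts each. Every one of 10 chondrocyte markers, among them Col2a1, Acan and Sox9, was counted in both tissues, and together they took 10.9% to 12.9% of counts in the articular and 2.95% to 3.23% in the xiphoid libraries. Col2a1 alone took 8.57% to 10.3% and 1.48% to 1.65%, and the other 9 markers 2.36% to 2.56% and 1.47% to 1.58%. Of the 10, 7 were higher in articular cartilage and 1, Comp, in xiphoid cartilage, while Sox9 and Matn3 did not pass. Levels are given as CPM, counts scaled to a common library size, which grow with transcript length, so they are compared between tissues for a gene and never between genes. Errors are SD with n = 2 unless an SE of a log2 fold change is named. A negative log2 fold change means higher in xiphoid cartilage.

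All 10 genes were higher in xiphoid cartilage (edgeR's quasi-likelihood test, threshold 0.05 after Benjamini-Hochberg adjustment over all genes tested), while 24.5% of all genes tested were called in that direction and 49.5% in either. With all 10 on the xiphoid side, 0 could be higher in articular cartilage with edgeR, whether p was adjusted or not. With DESeq2 or limma-voom 0 were higher there too, a direction that edgeR called for 25.0% of all genes. The size of the difference ran from 1.54-fold for Efemp2 to 1438-fold for Eln. The median log2 fold change was -3.36 over the 10 genes and -0.02 over all genes tested. The libraries of the tissues did not overlap for any of the 10, which was also so for 74.9% of all genes tested. In bulk tissue, fewer cells that make a transcript and less transcript per cell cannot be told apart.

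**Figure D1:**
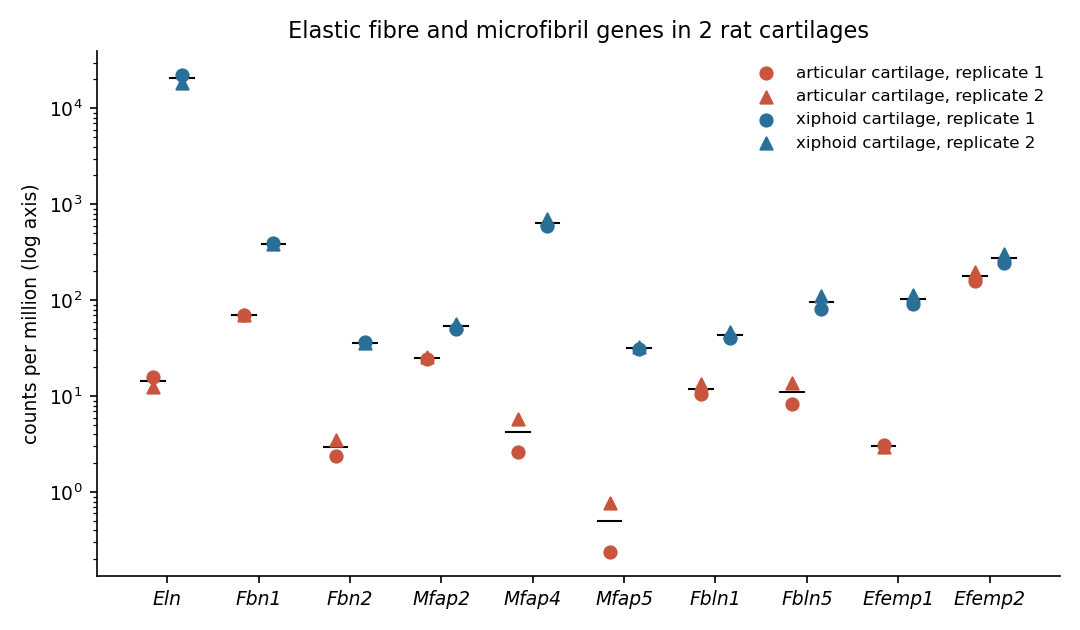
Level of the 10 genes in each library, in CPM on a log axis, with articular cartilage in red and xiphoid cartilage in blue, and with a bar at each tissue's mean. Every xiphoid library lay above both articular libraries of the same gene, by the widest margin for Eln and the narrowest for Efemp2.

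Of the marker lists of other cell types, 5 took a larger share of counts in the xiphoid libraries. The 12 fibroblast and perichondrium markers took 2.64% to 2.78% of counts there and 1.05% to 1.12% in the articular libraries. Without Gsn, which alone took 1.26% to 1.40% of the xiphoid counts, the shares of the other 11 were 1.38% in both xiphoid libraries and 1.01% to 1.08% in the articular libraries. Of the 12, 6 were higher in xiphoid cartilage, with Gsn and Postn among them, Dcn was higher on the articular side, and the other 5, including Col1a1 and Col1a2, did not pass. The 9 smooth muscle and pericyte markers took 0.0611% to 0.0639% against 0.0326% to 0.0360%, and 6 of them were higher in xiphoid cartilage and 1 in articular cartilage. Cspg4, which did not pass, supplied most of that list's articular counts. It had 2079 and 1654 counts in the articular and 1926 and 1446 in the xiphoid libraries. Skeletal muscle markers took 0.982% to 0.989% against 0.0237% to 0.0304%, with 9 of 10 higher in xiphoid cartilage, and adipocyte markers 0.256% to 0.320% against 0.00886% to 0.0101%, with 8 of 8. Tnni2, the skeletal muscle marker that did not pass, supplied most of that list's articular counts. It had 2245 and 1639 counts in the articular and 2153 and 1701 in the xiphoid libraries. Of the 8 endothelial markers 3 were higher in xiphoid cartilage and 1 in articular cartilage, at 0.0212% to 0.0227% against 0.0167% to 0.0176% of counts. No marker of these 5 lists was at 0 in both libraries of a tissue. Their part in the differences of the 10 genes was not tested.

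Elastin itself showed the widest difference of the 10 genes. Eln (Entrez gene 25043), whose product tropoelastin forms the elastic core, had 191110 and 135711 counts in the xiphoid libraries and 134 and 97 in the articular libraries. These counts corresponded to 22473 and 18592 CPM against 16.0 and 12.5 CPM. The lower xiphoid library was 1160 times the higher articular library, while the libraries of one tissue differed by a factor of 1.21 in xiphoid and 1.29 in articular cartilage. The log2 fold change was -10.49 (SE 0.26, adjusted p = 7.04e-11), the 21st most xiphoid-sided value among the 11202 genes tested. That order includes genes with few or no articular counts, whose fitted values depend on the prior count. Eln transcript was counted in both articular libraries.

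The make-up of the 10 genes' counts differed accordingly. Together they took 2.42% and 2.02% of all counts in the xiphoid libraries and 0.0296% and 0.0347% in the articular libraries. Eln supplied 93.5% and 91.3% of their xiphoid counts and 5.40% and 3.59% of their articular counts. With Eln set aside, the other 9 genes still took 0.158% and 0.177% of the xiphoid libraries against 0.0280% and 0.0334% of the articular libraries. Within those 9, the share of Efemp2 was 56.5% and 59.2% in articular and 15.8% and 17.1% in xiphoid cartilage. Its counts were nevertheless higher in xiphoid cartilage, at 2102 and 2215 against 1326 and 1540 in the articular libraries. The share of Mfap4 went from 0.937% and 1.73% in articular to 38.0% and 39.2% in xiphoid cartilage. Fbn1 held a like share of the 9 genes in both tissues, at 25.1% and 21.2% in articular and 25.1% and 21.6% in xiphoid cartilage. These are shares of counts and not of molecules, because long transcripts yield more reads.

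**Figure D2:**
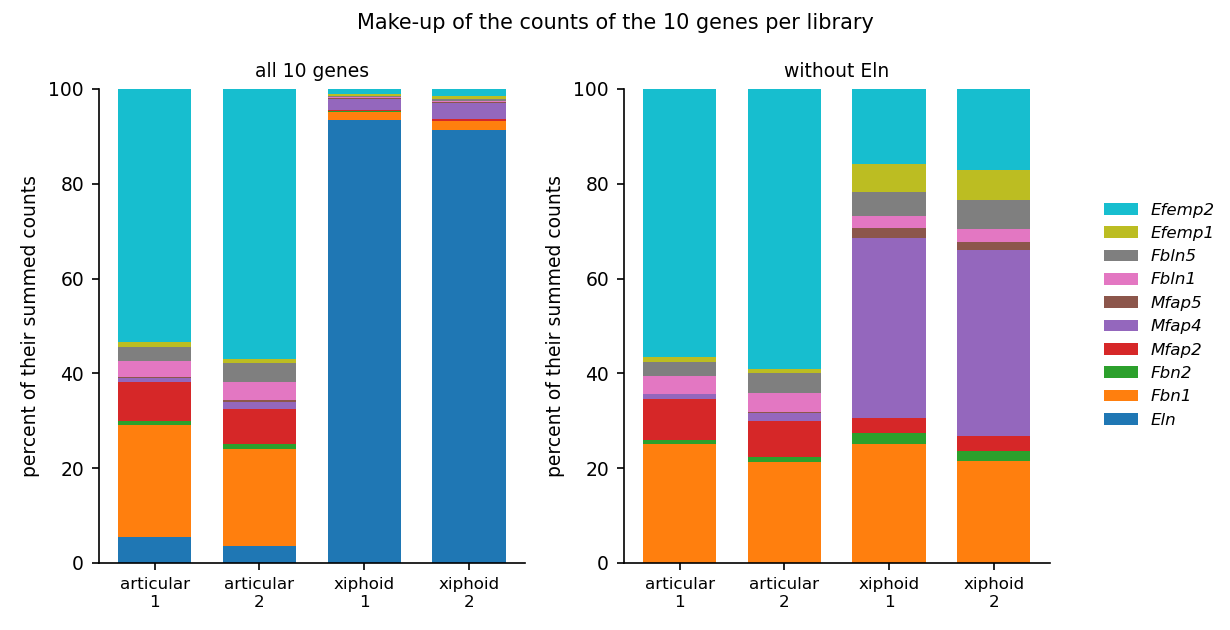
Percent of the summed counts of the 10 genes (left) and of the 9 genes without Eln (right) that each gene supplied, as a stacked bar for each of the 4 libraries. Eln filled 93.5% and 91.3% of the xiphoid bars at left. At right the Mfap4 share was larger and the Efemp2 share smaller in xiphoid than in articular cartilage, while the Fbn1 share stayed between 21.2% and 25.1%. Efemp2 counts themselves were higher in xiphoid cartilage.

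Both fibrillins were higher in xiphoid cartilage. Fbn1 (Entrez gene 83727), the main fibrillin of postnatal microfibrils and the gene mutated in Marfan syndrome, was at 70.3 and 70.9 CPM in the articular and 392 and 384 CPM in the xiphoid libraries. Its replicates lay closest together of the 10 genes in both tissues, within a factor of 1.01 in articular and 1.02 in xiphoid cartilage. The difference was 5.49-fold (fitted log2 change -2.46, SE 0.15, adjusted p = 5.91e-08). Fbn2 (Entrez gene 689008), a fibrillin best known from embryonic tissues, was at 2.39 and 3.47 CPM in the articular libraries, from 20 and 27 counts, and at 36.6 and 35.6 CPM in the xiphoid libraries. It was 12.3-fold higher in xiphoid cartilage (fitted log2 change -3.62, SE 0.25, adjusted p = 2.17e-07).

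Within the pair, Fbn2 made up more of the fibrillin counts in xiphoid cartilage. Such a share is formed inside a library, so no scaling factor moves it. In each pair compared here the share is of the gene with the larger fold change, so its direction restates the fold changes. For Fbn2 the share was 8.53% and 8.49% in the xiphoid libraries, with exact 95% binomial intervals of 7.64% to 9.48% and 7.53% to 9.54%. In the articular libraries it was 3.29% (2.02% to 5.03%) and 4.66% (3.10% to 6.71%), so these intervals, which cover counting error only, did not reach those of the xiphoid libraries. An exact 2-sided permutation test over the 4 libraries gave p = 0.333, the smallest p that 2 against 2 allows, for this share and for both pairs below.

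The microfibril-associated proteins differed widely in the size of their change. Mfap4 (Entrez gene 287382), a fibrinogen-domain glycoprotein that binds elastin and fibrillin, had 22 and 45 counts in the articular and 5061 and 5087 in the xiphoid libraries. This was 2.63 and 5.78 CPM against 595 and 697 CPM, a 154-fold difference (fitted log2 change -7.27, SE 0.29, adjusted p = 3.52e-09). The articular libraries differed by a factor of 2.20, and the log2 fold change was -7.93 without articular replicate 2 and -6.80 without articular replicate 1. Even so, the lower xiphoid value was 103 times the higher articular value.

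Mfap5 and Mfap2 encode the small microfibril-associated glycoproteins MAGP-2 and MAGP-1, which bind fibrillins. Mfap5 (Entrez gene 362429) had only 2 and 6 counts in the articular libraries, against 265 and 240 in the xiphoid libraries, or 0.239 and 0.771 CPM against 31.2 and 32.9 CPM. The difference was 62.6-fold (fitted log2 change -5.97, SE 0.36, adjusted p = 6.91e-08). With so few articular counts its size was the least settled of the 10 genes, with a log2 fold change of -6.97 without articular replicate 2 and -5.35 without articular replicate 1. Mfap2 (Entrez gene 313662) had 24.5 and 25.4 CPM in the articular and 49.7 and 57.1 CPM in the xiphoid libraries, a 2.14-fold difference (fitted log2 change -1.10, SE 0.17, adjusted p = 1.98e-04). The share of Mfap5 in the counts of the pair was 38.5% (34.9% to 42.3%) and 36.5% (32.8% to 40.3%) in the xiphoid libraries. It was 0.966% (0.117% to 3.45%) and 2.94% (1.09% to 6.29%) in the articular libraries, so in articular cartilage nearly all counts of the pair were Mfap2.

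Of the fibulins, Efemp1 differed the most. Efemp1 (Entrez gene 305604), a short fibulin known from fascia, was at 3.11 and 2.95 CPM in the articular libraries, from 26 and 23 counts, and at 92.5 and 113 CPM in the xiphoid libraries. It was 33.8-fold higher in xiphoid cartilage (fitted log2 change -5.08, SE 0.22, adjusted p = 3.68e-09). Fbln5 (Entrez gene 29158), which binds tropoelastin and is required for elastic fibre formation in mice, had 8.37 and 13.9 CPM in the articular and 80.7 and 110 CPM in the xiphoid libraries. The fit gave an 8.60-fold difference (fitted log2 change -3.10, SE 0.24, adjusted p = 7.64e-07), although its replicates differed by factors of 1.66 and 1.37. Fbln1 (Entrez gene 315191), a fibulin of microfibrils and basement membranes, was at 10.5 and 13.4 CPM against 40.6 and 46.3 CPM, 3.64-fold higher in xiphoid cartilage (fitted log2 change -1.86, SE 0.20, adjusted p = 1.13e-05).

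Efemp2 stood at the other end of the range. Efemp2 (Entrez gene 293677), which tethers lysyl oxidase to tropoelastin and is needed for elastic fibres and normal collagen cross-linking, was at 159 and 198 CPM in the articular and 247 and 303 CPM in the xiphoid libraries. The lower xiphoid value was 1.25 times the higher articular value, about the same as the factor of 1.25 between the articular libraries and of 1.23 between the xiphoid libraries. The difference of 1.54-fold passed (fitted log2 change -0.63, SE 0.16, adjusted p = 0.00730). It did not pass without xiphoid replicate 2 (fitted log2 change -0.46) or when tested against a fold of 1.5 (adjusted p = 0.411). Over 13 alternatives its adjusted p ran from 7.08e-10 to 0.411. The lowest value came from the fit with the replicate number as a block, a pairing that the labels do not state. Efemp1 made up 27.2% of the counts of Efemp1 and Efemp2 in both xiphoid libraries, with intervals of 25.6% to 28.9% and 25.6% to 28.8%. In the articular libraries it made up 1.92% (1.26% to 2.81%) and 1.47% (0.935% to 2.20%).

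**Figure D3:**
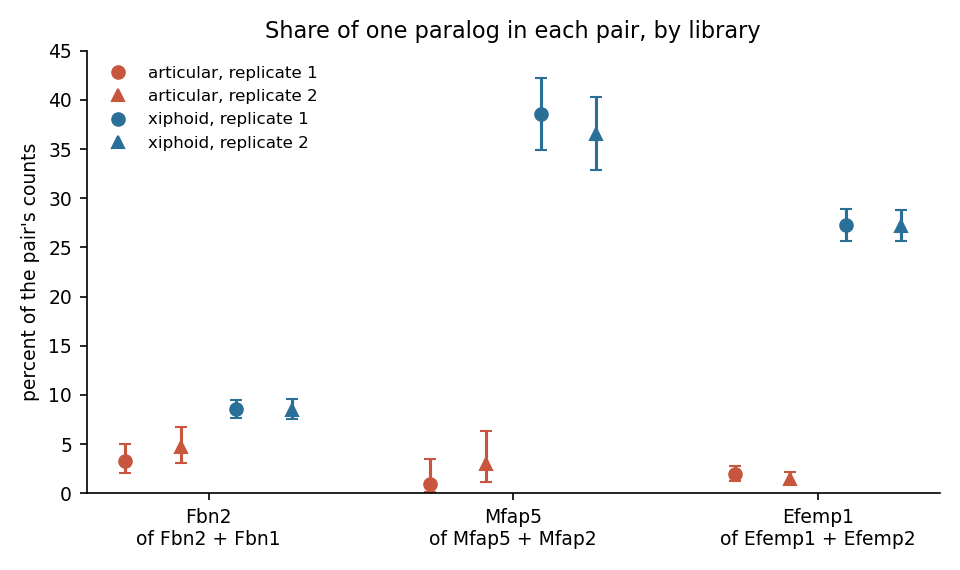
Percent of a pair's counts that came from Fbn2, Mfap5 or Efemp1 in each library, with exact 95% binomial intervals as bars and the tissue shown by colour. Each is the gene of its pair with the larger fold change. In all 3 pairs both xiphoid libraries therefore lay above both articular libraries, from 8.49% against 4.66% for Fbn2 to 36.5% against 2.94% for Mfap5.

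Since all 10 genes were higher in the same tissue, the sequence just before their RefSeq starts (build GRCr8) was looked up. The set of upstream windows used here covered 7 of the 10: Efemp1, Efemp2, Fbln5, Fbn1, Fbn2, Mfap2 and Mfap5. Mfap5 and Efemp1 are shown as the genes of these 7 with the largest differences between tissues. Each stretch ends at the last base before the first annotated base of the gene, on the plus strand, and reads 5′ to 3′. The stretch shown is 250 bases long for Mfap5 and 155 for Efemp1, the latter shorter than the 250 bases searched. Capitals mark the motif matches inside the stretch shown, an E-box in Mfap5 and an AP-1-like site and then an E-box in Efemp1. The GC box of Efemp1 lies beyond its stretch. The AP-1-like pattern TGANTCA was searched with any middle base, and the match in Efemp1 has A there.
Mfap5, chr4:157399669-157399918: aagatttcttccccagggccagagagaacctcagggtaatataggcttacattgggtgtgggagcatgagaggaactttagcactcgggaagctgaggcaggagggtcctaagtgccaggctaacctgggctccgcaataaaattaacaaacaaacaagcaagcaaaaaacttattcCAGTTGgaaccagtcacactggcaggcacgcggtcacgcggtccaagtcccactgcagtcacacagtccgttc
Efemp1, chr14:106811614-106811768: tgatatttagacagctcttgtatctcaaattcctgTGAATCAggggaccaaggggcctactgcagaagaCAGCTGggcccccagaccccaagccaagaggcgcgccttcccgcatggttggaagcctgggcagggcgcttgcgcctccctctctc

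Over the 250 bases before the listed start, none of the 4 motifs searched on both strands was found in all 7 genes. The GC box GGGCGG was found in 4 of 7 windows (Efemp1, Efemp2, Fbln5 and Mfap2) and in 32.4% of 27457 windows of the same length. The E-box CANNTG was found in 4 of 7 (Efemp1, Efemp2, Fbln5 and Mfap5) and in 65.2% of all windows. The AP-1-like site TGANTCA was found in Efemp1 and in 6.36% of all windows, and the TATA box TATAAA in 0 of 7 and in 13.1%. The GC content was 51.6% for Mfap5 and 61.2% to 71.2% for the other 6, against a median of 52.0% over all windows. All windows here were not limited to the genes tested, so their shares and median do not describe expressed genes alone. A match is a description of letters and not a measured binding site.

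The other genes of elastic fibre and microfibril biology did not share one direction. The list held 51 genes, of which 37 were in the table and tested, with 14 higher in xiphoid cartilage and 14 in articular cartilage, while 9 did not pass. Its median log2 fold change was -0.04, close to that of all genes tested. These shares, 14 of 37 in each direction, stand beside 24.5% and 25.0% over all genes tested. Of these 37, 34 did not overlap between tissues, beside 74.9% of all genes tested.

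**Figure D4:**
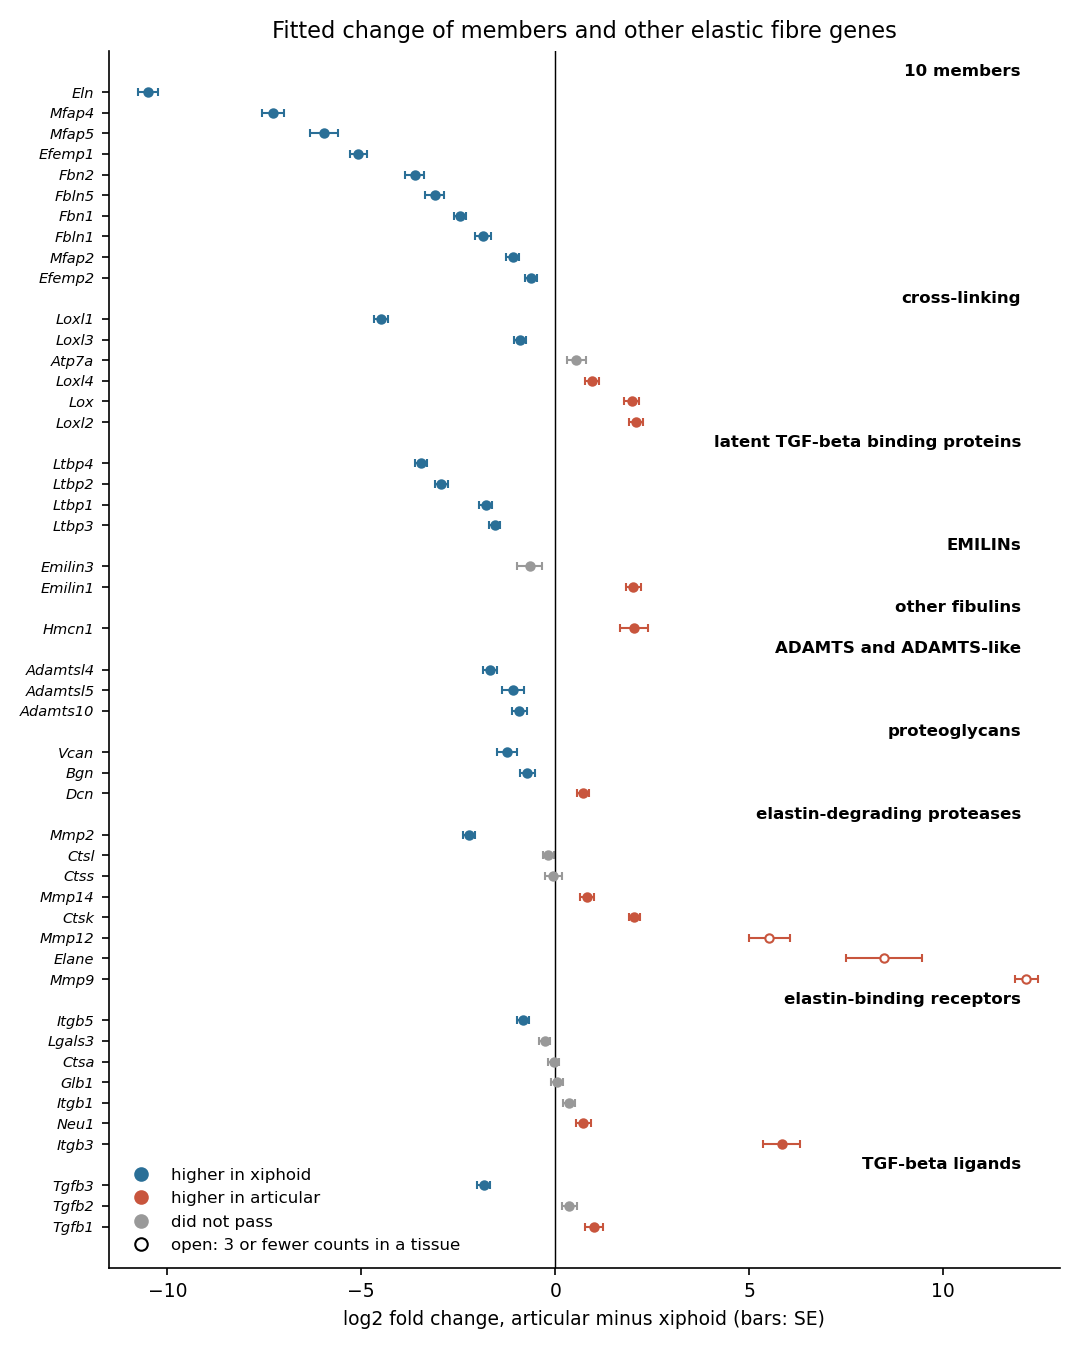
Fitted log2 fold change (articular minus xiphoid) with its SE for the 10 genes and 37 other genes of elastic fibres, grouped by role, with colour for the call and open symbols for genes with 3 or fewer counts in a tissue, whose fitted value depends on the prior count. The 10 genes all lay left of 0, as did the latent TGF-beta binding proteins, while the cross-linking enzymes and proteases lay on both sides.

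Latent TGF-beta binding proteins, which share domains with fibrillins and dock growth factors on microfibrils, had 4 of 4 members higher in xiphoid cartilage. Ltbp4, which also assists elastin assembly with Fbln5, had 31.5 ± 2.97 CPM in the articular and 346 ± 2.09 in the xiphoid libraries (fitted log2 change -3.45, adjusted p = 6.81e-09). Ltbp2 had 15.9 ± 1.74 and 122 ± 9.94 CPM (fitted log2 change -2.94, adjusted p = 5.65e-08). All 3 tested ADAMTS and ADAMTS-like genes whose products bind microfibrils were higher in xiphoid cartilage too. Adamtsl4, known for its role in the fibrillin-rich zonule of the eye, was at 23.1 ± 2.17 against 74.1 ± 8.89 CPM (adjusted p = 7.56e-06), and Adamts10 at 48.2 ± 7.65 against 91.4 ± 18.1 CPM (adjusted p = 0.00127). Among the TGF-beta ligands, Tgfb3 was on the xiphoid side, with 43.8 ± 5.33 articular and 158 ± 10.4 xiphoid CPM (adjusted p = 1.76e-06), and Tgfb1 on the articular side, with 131 ± 38.3 and 65.1 ± 18.3 CPM (adjusted p = 0.00492), while Tgfb2 did not pass.

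Cross-linking enzymes split, with 2 of 6 higher in xiphoid cartilage, 3 higher in articular cartilage and the copper pump Atp7a not passing. Loxl1, the lysyl oxidase tied to elastin upkeep, had 19.5 ± 3.84 CPM in the articular and 440 ± 16.8 in the xiphoid libraries (fitted log2 change -4.49, adjusted p = 2.53e-09). Loxl3, which acts on collagen, had 129 ± 18.8 against 241 ± 3.92 CPM (adjusted p = 3.91e-04). On the articular side, Loxl2 had 220 ± 21.6 against 52.2 ± 9.50 CPM (fitted log2 change 2.08, adjusted p = 1.15e-06) and Lox, the partner of Efemp2, had 2085 ± 512 against 531 ± 77.2 CPM (fitted log2 change 1.97, adjusted p = 5.18e-06). Emilin1, found where elastin meets microfibrils, had 302 ± 68.5 articular and 74.8 ± 15.6 xiphoid CPM and was higher in articular cartilage (adjusted p = 4.64e-06), whereas Emilin3 did not pass. The large fibulin Hmcn1 was at 9.84 ± 2.25 against 2.36 ± 0.819 CPM (adjusted p = 5.39e-04).

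Proteoglycans that bind tropoelastin or fibrillin also went both ways. Vcan (versican) had 10.3 ± 3.58 CPM in the articular and 24.5 ± 2.37 in the xiphoid libraries (adjusted p = 0.00139), and Bgn (biglycan) had 2884 ± 651 against 4752 ± 1077 CPM (adjusted p = 0.0105). Dcn (decorin) was higher in articular cartilage, at 762 ± 60.1 against 465 ± 33.0 CPM (adjusted p = 0.00181). Of 8 tested proteases able to degrade elastin, 5 were higher in articular cartilage, Mmp2 was higher in xiphoid cartilage and 2, Ctss and Ctsl, did not pass. Mmp9 had 5035 and 5263 counts in the articular libraries and 1 count in each xiphoid library. Ctsk, the cathepsin of osteoclasts, was at 530 ± 9.90 against 129 ± 6.47 CPM (adjusted p = 3.18e-07), and Mmp2 at 166 ± 9.20 against 773 ± 36.7 CPM (adjusted p = 1.79e-07). Osteoblast, macrophage and osteoclast, and erythroid and marrow markers, the last a list that shares Elane with the proteases, took larger shares of the same articular libraries. The 7 macrophage and osteoclast markers, of which Ctsk is one, took 0.138% to 0.142% of articular against 0.0185% to 0.0188% of xiphoid counts, with 4 of 7 higher in articular cartilage, while Adgre1, Cd163 and Mrc1 did not pass. The 7 osteoblast markers, all 7 higher in articular cartilage, took 0.764% to 0.795% against 0.0364% to 0.0372%. The 6 erythroid and marrow markers took 0.365% to 0.406% against 0.0289% to 0.0305%, with 5 of 6 higher in articular cartilage and Mpo not passing. Phex of the osteoblast list and Elane were at 0 counts in both xiphoid libraries. The part of these lists in the protease values was not tested.

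Receptors and complexes that bind elastin had 4 of 7 tested members that did not pass, Itgb1, Lgals3, Glb1 and Ctsa. Itgb5 had 201 ± 18.0 articular and 357 ± 18.9 xiphoid CPM and was higher in xiphoid cartilage (adjusted p = 5.27e-04). Itgb3, an integrin chain also known from osteoclasts and platelets, had 285 and 253 counts in the articular and 9 and 0 in the xiphoid libraries (adjusted p = 1.63e-06). Neu1, the sialidase of the elastin receptor complex, was at 28.7 ± 2.67 against 17.5 ± 1.07 CPM (adjusted p = 0.00839).

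The genes beside the 10 in the genome were compared to see whether the difference extended to them, using the nearest tested gene on each side in the RefSeq order of GRCr8. Of 20 such neighbours, 4 were higher in xiphoid cartilage, 1 in articular cartilage, and the other 15 did not pass, with a median log2 fold change of -0.16. Over all genes tested, 24.5% were called toward xiphoid cartilage and 25.0% toward articular cartilage, 49.5% in either direction. Beside Eln, the kinase gene Limk1 did not pass (fitted log2 change -0.37, SE 0.29, adjusted p = 0.313), and Mettl27 had 4.38 articular and 7.87 xiphoid CPM (fitted log2 change -0.84, SE 0.31, adjusted p = 0.0377). Both neighbours of Fbn2 were higher in xiphoid cartilage. Slc27a6, a fatty acid transporter gene, had a log2 fold change of -4.02 (SE 0.22, adjusted p = 2.70e-08) and Slc12a2, an ion cotransporter gene, one of -1.40 (SE 0.18, adjusted p = 4.80e-05). Rnf112, beside Mfap4, had no articular count and was at 1.91 CPM in xiphoid cartilage (adjusted p = 0.00124). Trip11, beside Fbln5, was higher in articular cartilage (fitted log2 change 1.81, SE 0.17, adjusted p = 3.07e-06). The neighbours of Fbn1, Mfap2, Mfap5, Fbln1, Efemp1 and Efemp2 did not pass.

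**Figure D5:**
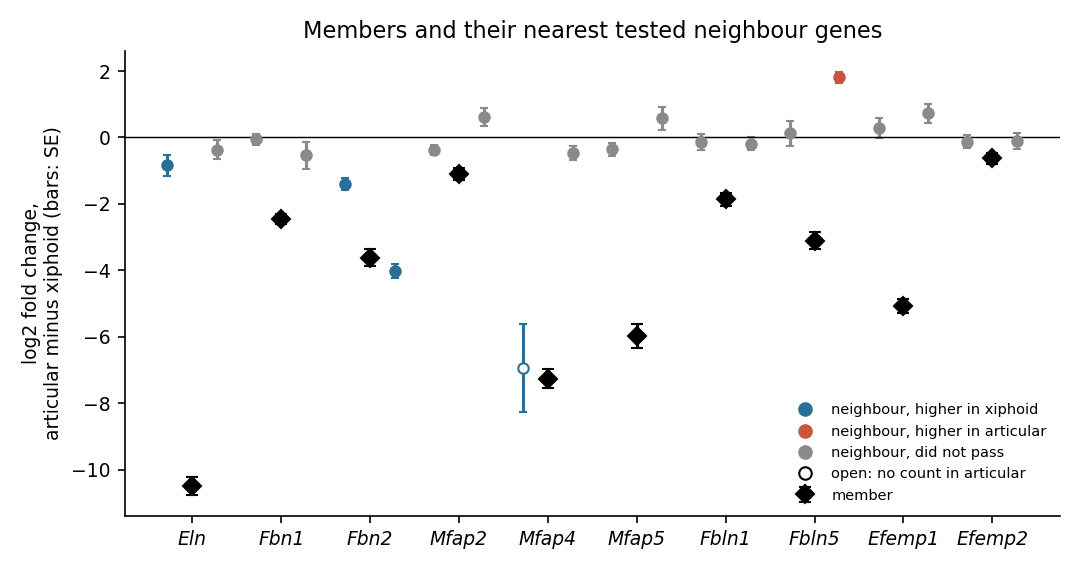
Log2 fold change (articular minus xiphoid) with its SE for the 10 genes (black) and the nearest tested gene on each side (circles, coloured by call, open where articular cartilage had no count). Most neighbours lay near 0, and 15 of 20 did not pass, while 49.5% of all genes tested passed in either direction.

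For 5 of the 10 genes another RefSeq gene overlaps the same stretch of GRCr8, and the sources used here do not say whether reads were assigned by strand. For Eln, Fbn1, Fbn2 and Fbln1 the overlapping gene is a long noncoding RNA gene outside the set tested. For Mfap2 it is the ATPase gene Atp13a2, which had 23.2 articular and 32.1 xiphoid CPM and did not pass (fitted log2 change -0.47, SE 0.19, adjusted p = 0.0540).

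The genes most like Eln across the 4 libraries were found by the Euclidean distance between log2 CPM values centred on each gene's mean, with 0.5 CPM added. Outside the 10 genes, the nearest were Acta1 (distance 0.392), Myl1 (0.596), Myh4 (0.850), Ckm (0.991) and Tnnc2 (1.01), all genes of skeletal muscle. Acta1, the skeletal muscle actin gene, was at 2.27 and 1.67 CPM in the articular and 3032 and 3678 CPM in the xiphoid libraries. Myl1, Myh4, Ckm and Tnnc2 had only 0 to 3 counts in each articular library, so their distances depend strongly on the added 0.5 CPM. With 2 tissues and 2 libraries of each, the measure ranks genes mainly by how far the tissues lie apart.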

How the data were processed

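RNA-seq libraries of 2 articular and 2 xiphoid cartilage samples were analysed. The tools named in the submitters' processing notes were RSEM 1.2.12, Bowtie2 2.2.6, StringTie 1.2.1 and HISAT2 2.0.4, beside genome build rn6; their roles are not given in the sources used here. The authors deposited expected counts per gene, which are estimated and unnormalized read numbers per the file headers, and 3.91% of the values were not whole. Counts of 7 of the 10 genes also drew on transcripts assembled by the authors' pipeline.

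Expected counts were rounded, filtered with filterByExpr, scaled by TMM and tested with the edgeR 4.0.16 quasi-likelihood test (R 4.3.3, tissue as the only term, 2 residual degrees of freedom, Benjamini-Hochberg over 11202 genes, threshold 0.05). The SE is the log2 fold change divided by the square root of F. The procedure was also run on simulated data. Far fewer genes were changed there than were called here, so that run does not test scaling when so many genes differ. RefSeq sequences and neighbours came from GRCr8, a build other than rn6. Alternatives were other scalings, filters, DESeq2 1.42.0, limma-voom 3.58.1, glmTreat, a replicate block and leaving out each library.

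The members and lists were chosen with earlier results of these data known. Named were all 10 genes, up to 2 genes per direction with the lowest adjusted p in each group of the other list, those that did not pass, and the 5 genes nearest to Eln. Neighbours, the overlapping gene and the motifs were chosen after the values were seen. Of the 51 listed genes, 14 are not analysed here.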

Additional observations from a re-analysis of the deposited data

How the results depend on the processing

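Of 130 recomputed log2 fold changes of the 10 genes, 128 kept their direction and passed, 0 reversed and 2, both of Efemp2, kept their direction without passing. The count of the 10 genes higher in xiphoid cartilage was 9 to 10 when each library was left out, and 0 were higher in articular cartilage throughout. A lone remaining library was assumed to vary like the other tissue. Over all genes, glmTreat against a fold of 1.5 called 1538 higher in xiphoid and 1686 higher in articular cartilage, since it asks for a larger change. With the replicate number as a block, 10 of the 10 genes and 3484 and 3344 of all genes were called. Same-numbered libraries deviated together (correlation over genes 0.27), but with 2 pairs this does not establish a pairing, and the labels state none. Depth limits Mfap5 most, with 2 and 6 articular counts. The 3 pair shares kept their direction without each library, with differences of -5.22 to -3.85 percentage points for Fbn2, -36.6 to -34.6 for Mfap5 and -25.8 to -25.3 for Efemp1.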
